A study of Mus musculus with 12 samples.

Results

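Hif1a and 31 genes of hypoxia and glycolysis, 32 of the 33696 genes in the deposited matrices, were followed in T cells taken from tumours of MC38, a colon carcinoma line of mice. The members were the listed gene symbols, and their unique molecular identifiers (UMIs, counts of captured mRNA molecules) were summed per tumour pool, Kaede colour and T cell class. Kaede mice carry a photoconvertible protein that turns from green to red under violet light, and here the tumour-draining lymph node was converted on day 14 of tumour growth. Red cells in a tumour had thus been in the lit node, while green cells were unconverted. The tumour was then irradiated with 12 Gy (RT) or left untreated (NT), and T cells were collected at 24 h (day 1) or at 72 h (day 3). The 6 conditions were RT day 1, NT day 1, RT day 3, NT day 3, RT+FTY720 day 3 and FTY720 day 3. FTY720, a drug that keeps lymphocytes from leaving lymph nodes, was given as 10 µg into the peritoneum on day 15. All animals carried the Kaede allele and the photoconverted node, the untreated controls included. Each condition had 2 replicates, each a pool of 4 tumours, which gave 12 pools and 24 hashed samples.

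HIF-1α, the protein of Hif1a, is made continuously and destroyed when oxygen is present. The prolyl hydroxylases encoded by Egln1 and Egln3 mark it for destruction, and when they lack oxygen it binds DNA at the core letters ACGTG or GCGTG. It then drives genes for glucose uptake, glycolysis, lactate export and restraint of mitochondrial respiration, and activated T cells use the same programme to make effector molecules. Oxygen acts on the protein, and the matrices hold mRNA alone.

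Promoter windows from 250 bases before to 50 after the annotated start, taken from RefSeq on GRCm38.p6, were found for 28 of the 32 members as 39 windows of 300 bases. Bhlhe40, Ndrg1, Bnip3l and Slc2a3 had no window. ACGTG was in 22 of the 39 windows (56.4%) on either strand, against 6447 of 32851 windows of all genes (19.6%). GCGTG was in 21 of 39 (53.8%), against 32.4% of all windows. Either core was in 76.9% of the member windows and 43.8% of all windows. The longer letters CACGTG, which read as ACGTG on both strands, were in 3 of 39 (7.69%), against 7.15%. These are letter matches, not measured binding. The windows of Hif1a and of 3 members that recur in the comparisons follow, 5′ to 3′ on the gene's strand, with each ACGTG or GCGTG of either strand in capitals (CACGT is ACGTG of the other strand). They lie at chr12:73907617-73907916 (Hif1a, plus strand), chr11:120948817-120949116 (Slc16a3, plus), chr10:75860228-75860527 (Mif, minus) and chr10:59323046-59323345 (P4ha1, plus).
Hif1a: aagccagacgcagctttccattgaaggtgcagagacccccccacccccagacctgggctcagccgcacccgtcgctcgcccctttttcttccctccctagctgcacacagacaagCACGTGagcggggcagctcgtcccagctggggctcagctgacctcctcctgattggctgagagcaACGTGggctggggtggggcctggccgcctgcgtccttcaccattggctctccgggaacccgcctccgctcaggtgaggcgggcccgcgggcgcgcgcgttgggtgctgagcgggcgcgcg
Slc16a3: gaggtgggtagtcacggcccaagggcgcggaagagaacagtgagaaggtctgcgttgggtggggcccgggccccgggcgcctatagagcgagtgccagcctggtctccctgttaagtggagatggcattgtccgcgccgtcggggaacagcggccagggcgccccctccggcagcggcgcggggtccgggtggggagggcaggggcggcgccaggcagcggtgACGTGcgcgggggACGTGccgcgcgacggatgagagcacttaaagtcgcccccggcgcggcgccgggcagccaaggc
Mif: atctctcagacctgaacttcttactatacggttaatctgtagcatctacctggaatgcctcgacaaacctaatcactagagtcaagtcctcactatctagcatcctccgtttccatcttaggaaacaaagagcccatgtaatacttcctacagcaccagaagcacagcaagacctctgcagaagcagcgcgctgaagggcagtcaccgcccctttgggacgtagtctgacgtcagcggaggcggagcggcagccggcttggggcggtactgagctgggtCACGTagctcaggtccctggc
P4ha1: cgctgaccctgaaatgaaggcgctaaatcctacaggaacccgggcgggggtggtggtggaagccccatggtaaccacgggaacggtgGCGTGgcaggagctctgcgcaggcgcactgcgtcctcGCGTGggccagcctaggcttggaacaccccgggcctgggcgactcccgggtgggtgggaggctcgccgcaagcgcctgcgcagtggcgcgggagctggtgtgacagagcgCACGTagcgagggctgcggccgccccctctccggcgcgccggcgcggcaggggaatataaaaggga
Hif1a itself had 3 ACGTG matches, 2 of them readings of both strands of its single CACGTG. Slc16a3, the lactate exporter, had 2, and Mif and P4ha1 had 1 each, P4ha1 beside 2 GCGTG.

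Filters left 2740 of 2816 barcodes. A hashed sample held 17 to 322 cells with 337319 to 7891316 UMIs in sum, and no barcode was shared between the 4 wells. Marker UMIs put 557 cells in a Treg-like class, 435 in a CD4 conventional-like class and 1321 in a CD8-like class. Foxp3, the Treg transcription factor, was part of the rule for the Treg-like class, so its level cannot check the name. It averaged 765 CPM (UMI counts scaled to a common library size) in red and 737 CPM in green Treg-like cells. CD8-like cells had 20.7 and 8.86 CPM. Il2ra, a Treg marker outside the rule, averaged 1811 and 1922 CPM in red and green Treg-like cells. Its averages were 316 and 144 CPM in CD8-like and 157 and 171 CPM in CD4 conventional-like cells. Of the Treg markers looked up, only Il10 in red cells was below another of these classes (121 CPM, against 136 CPM in CD4 conventional-like cells). A further 319 CD8 cells lay in clusters with naive markers. The larger of these clusters was led by Klra7, Klra6 and Eomes, genes that go against a naive name, so it is called by its rule. RT day 1, NT day 1 and NT day 3 shared a well in each replicate, and RT day 3, FTY720 day 3 and RT+FTY720 day 3 shared another. RT and NT at day 3 therefore came from different wells, so that well and radiation cannot be told apart there, while RT+FTY720 and FTY720 shared a well. The colour names of the hashtags in the matrices were used throughout. In replicate 2 they were opposite to the colours that the labels give those tags, for 12 of 12 hashtags, and in replicate 1 for 0 of 12. Colour comparisons are therefore also given with the colours of the labels.

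Hif1a mRNA was the only member that edgeR called higher in irradiated tumours at day 3 both with and without FTY720. This held in CD8-like and CD4 conventional-like cells, and not in Treg-like cells. In CD8-like cells Hif1a stood at 1139 and 1122 CPM in the RT day 3 pools, against 469 and 377 CPM in the NT day 3 pools. With FTY720 it stood at 1305 and 1263 CPM in RT+FTY720 pools, against 341 and 484 CPM in FTY720 pools. All 4 irradiated day 3 pools lay above all 8 other pools, whose highest value was 527 CPM in an RT day 1 pool. The log2 fold change was 1.42 ± 0.15 for RT against NT (SE, 2 pools each, edgeR quasi-likelihood adjusted p = 0.000579) and 1.61 ± 0.16 for RT+FTY720 against FTY720 (adjusted p = 0.000534). These sums held 935 and 1059 Hif1a UMIs from 26 and 46 RT day 3 cells, against 1538 and 2226 UMIs from 140 and 251 NT day 3 cells. The difference between these 2 effects was 0.20 ± 0.22 (adjusted p = 0.813). RT+FTY720 against RT gave 0.18 ± 0.15 (adjusted p = 0.72).

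Both colours of CD8-like cells carried the rise. Red cells of RT day 3 pools had 1134 and 1139 CPM of Hif1a and green cells of those pools 1303 and 1167 CPM, against 724 and 385 CPM in red and 279 and 392 CPM in green cells of NT day 3 pools. Under FTY720, red cells had 1434 and 1635 CPM and green cells 1264.5 and 895 CPM with RT, against 470 and 652 CPM in red and 278 and 344 CPM in green cells without it. In each colour the irradiated day 3 pools lay above the unirradiated ones.

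CD4 conventional-like cells showed the same gene at a higher level. Hif1a stood at 1844 and 1815 CPM in RT day 3 pools, against 701 and 744 CPM in NT day 3 pools. RT+FTY720 pools had 2026 and 1784.5 CPM, against 692 CPM in the only FTY720 pool with at least 5 such cells. The groups did not overlap, and the log2 fold change was 1.34 ± 0.18 (edgeR adjusted p = 0.00115) without FTY720 and 1.46 ± 0.24 (adjusted p = 0.0373) with it. The second call was lost in 4 of 10 fits that left out 1 pool (those without RT day 1 replicate 1 or 2, or NT day 3 replicate 1 or 2), with a log2 fold change of 1.36 to 1.55 over the 10.

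Treg-like cells were high in Hif1a without radiation. The RT day 3 pools had 1684.5 and 1516 CPM, against 1021 and 1069.9 CPM in NT day 3 pools. The RT+FTY720 pools had 979 and 1585 CPM, against 1543 and 1474 CPM in FTY720 pools, which overlapped. Neither difference passed the test, with log2 fold changes of 0.61 ± 0.23 (edgeR adjusted p = 0.332) and -0.24 ± 0.24 (adjusted p = 0.77). The radiation effect in Treg-like cells minus that in CD8-like cells was -0.80 ± 0.29 (adjusted p = 0.783), so a difference between lineages was not shown. For that difference edgeR and DESeq2 called 0 of 31 members, beside 0% of all genes, with 1 at an unadjusted p below 0.05. Against CD4 conventional-like cells they called 0 of 30, beside 0%, with 1 at an unadjusted p below 0.05. The Treg-like sums at day 3 came from 7 to 22 cells per pool in the 3 treated conditions.

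**Figure D1:**
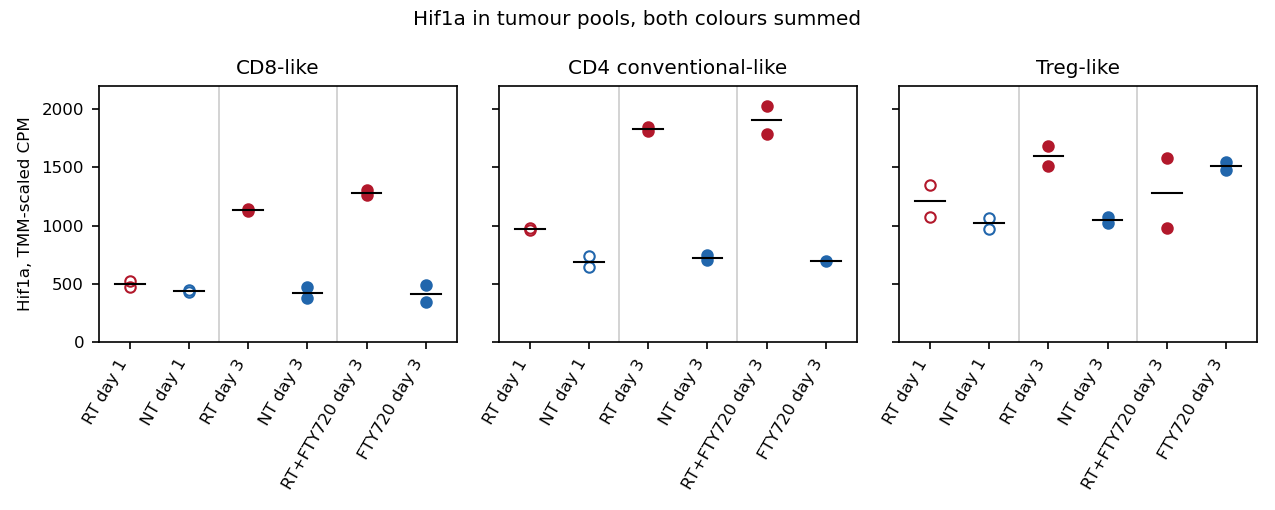
Hif1a in TMM-scaled CPM for each tumour pool, in CD8-like, CD4 conventional-like and Treg-like cells with both colours summed. Points are pools, bars are means, open points are day 1, and red points are irradiated. The irradiated day 3 pools of CD8-like and CD4 conventional-like cells stand above every other pool of their class, and the Treg-like pools overlap.

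Other measures were read beside Hif1a at day 3, and their part in it was not tested except where a value is given. Cells of a cluster led by interferon genes made up 26.9% and 34.8% of CD8-like cells in RT day 3 pools, against 5.71% and 3.98% in NT day 3 pools. In CD4 conventional-like cells they made up 70% and 60%, against 17.9% and 15.5%. Without this cluster and the one led by p53 target genes, the Hif1a change was 1.51 ± 0.17 in CD8-like cells (edgeR adjusted p = 0.00105) and 1.31 ± 0.18 in CD4 conventional-like cells (adjusted p = 0.0159), and 1.74 ± 0.17 for RT+FTY720 against FTY720 in CD8-like cells (adjusted p = 0.00294). The median mitochondrial share of UMIs per CD8-like cell was 1.35% and 1.31% in RT day 3 pools, against 1.64% and 1.66% in NT day 3 pools. Summed myeloid markers in CD8-like cells were at 20.7 to 24.4 CPM in RT day 3 pools, against 20.7 to 25.3 CPM in NT day 3 pools, with S100a8 and S100a9 at 0. Of 7 p53 targets tested 2 were higher with RT, and of 10 early activation genes 1 was lower. Between RT+FTY720 and FTY720 pools some of these measures went another way. Early activation genes had a median of 0.62 there, with 7 of 10 positive and 0 called, against -0.18 for RT against NT. Of 9 cell cycle genes, 8 were positive for RT against NT (median 0.54). For RT+FTY720 against FTY720 1 was positive (median -1.42), and 0 were called in either comparison. The interferon cluster made up 10% and 31.9% of CD8-like cells in RT+FTY720 pools, against 0% and 13.5% in FTY720 pools, which overlapped. The median mitochondrial share was 1.15% and 1.0%, against 1.84% and 1.64%. Of 7 p53 targets 2 were higher, Cdkn1a by 2.87 and Ccng1 by 1.3 on the log2 scale, and of 8 dissociation genes 1 was lower.

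Hif1a was the only member that passed for RT against NT at day 3 in CD8-like cells. Of 31 members tested for RT against NT at day 3, 1 was higher and 0 were lower, while 3.4% of all 10265 genes tested were higher and 1.3% lower. The median member change was 0.04 on the log2 scale and 16 of 31 were positive, against a median of 0.00 over all genes. Vegfa, the vascular growth factor, was too low to test in any comparison, with means of 0 CPM in RT day 3 and 5.24 CPM in NT day 3 CD8-like cells.

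By role, Egln1 and Egln3, which mark HIF-1α for destruction, did not pass, and neither did the glucose transporters Slc2a1 and Slc2a3 or the lactate exporter Slc16a3, at 0.45 ± 0.30. Among the 7 upper glycolytic enzymes, Hk2, an inducible hexokinase, was at 34.1 and 18.0 CPM in RT pools, against 17.7 and 10.3 CPM in NT pools. Pfkp, a phosphofructokinase, had a log2 fold change of -0.40 ± 0.13 (edgeR adjusted p = 0.13). Of the 6 lower enzymes Gapdh had the largest change, at 2786 and 2222 CPM in RT pools, against 1821 and 1154 CPM in NT pools (0.75 ± 0.26, adjusted p = 0.142). Reads of Gapdh, Pgk1, Mif and some other members can be shared with processed pseudogenes, and how such reads were assigned is not given in the sources used here. All 4 mitochondrial genes (Pdk1, Bnip3, Bnip3l, Higd1a) had negative values that did not pass. Ankrd37, a HIF target, had 6.09 and 6.36 CPM in RT pools, against 21.6 and 19.3 CPM in NT pools (5 and 6 UMIs, against 71 and 114), and its -1.70 ± 0.51 did not pass either (adjusted p = 0.0892).

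Under FTY720 more members passed. Of 31 tested in CD8-like cells, 3 were higher in RT+FTY720 than in FTY720 pools and 0 were lower, beside 2.01% of all genes higher and 1.43% lower, and 28 of 31 were positive, with a median of 0.31 against 0.00 over all genes. Besides Hif1a these were Aldoa, the glycolytic aldolase, and Slc16a3. Aldoa stood at 883 and 1121 CPM in RT+FTY720 pools, against 657 and 694 CPM in FTY720 pools (0.57 ± 0.13, edgeR adjusted p = 0.0412). Slc16a3 stood at 42.5 and 51.4 CPM, against 7.30 and 17.1 CPM (3 and 21 UMIs, 1.73 ± 0.43, adjusted p = 0.0495). Neither gene's groups overlapped, but both RT+FTY720 levels were near those of NT day 3 pools, at 938 and 910.5 CPM of Aldoa and 39.6 and 30.7 CPM of Slc16a3, and the FTY720 pools were the low ones. Leaving out 1 pool kept the Aldoa call in 5 of 12 fits (without either RT day 1 pool, either RT day 3 pool or RT+FTY720 replicate 1), with values of 0.38 to 0.73. The Slc16a3 call was kept in 4 of 12 (without either RT day 1 or either RT day 3 pool), with values of 1.47 to 2.70. In RT against NT pools at day 3 Aldoa gave 0.09 ± 0.13 and Slc16a3 0.45 ± 0.30.

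**Figure D2:**
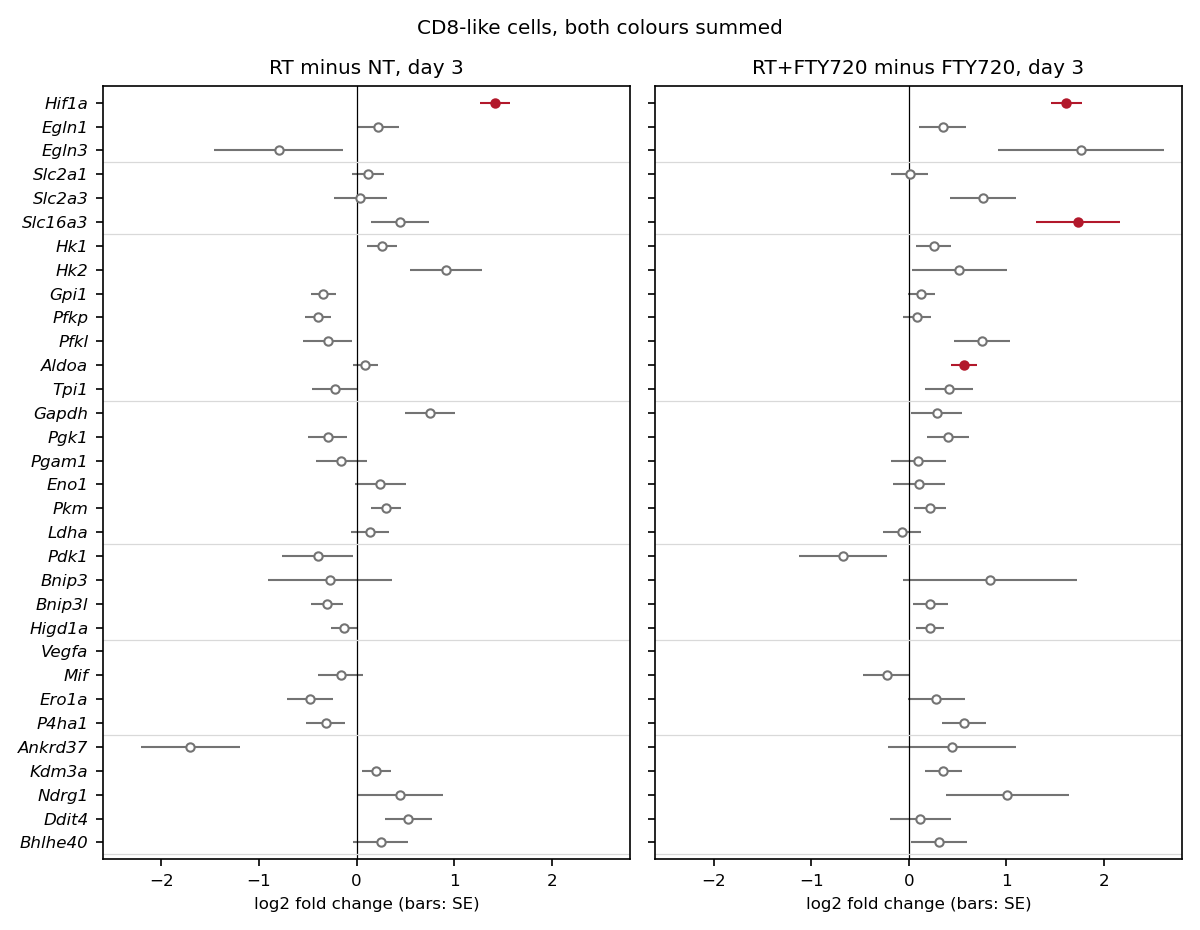
Log2 fold change with its SE for every tested member in CD8-like cells at day 3, RT against NT on the left and RT+FTY720 against FTY720 on the right, ordered by role with lines between roles. Filled red points passed the adjusted p threshold of 0.05. Hif1a passed in both, and Slc16a3 and Aldoa in the right panel alone.

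FTY720 alone gave lower values that did not pass. Against NT day 3, 0 of 31 members were called in CD8-like cells by edgeR or DESeq2, beside 0% of all genes, with 8 members at an unadjusted p below 0.05 and 6 of 31 positive. Pgk1, a lower glycolytic kinase, had 207 and 313 CPM in FTY720 pools, against 439 and 442 CPM in NT day 3 pools (-0.72 ± 0.21, edgeR adjusted p = 0.657). Slc16a3 gave -1.28 ± 0.39 and Aldoa -0.45 ± 0.13 (both adjusted p = 0.657). The FTY720 pools serve both this comparison and the one with RT+FTY720, and they held 19 and 52 CD8-like cells. RT+FTY720 against RT called 0 of 31 members by both tools, beside 0.0974% of all genes, with 2 at an unadjusted p below 0.05. The change of the radiation effect with FTY720 also called 0 of 31 by both tools, beside 0.0779%, with 10 members at an unadjusted p below 0.05.

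In CD4 conventional-like cells Hif1a was the single member of 31 called for RT against NT at day 3, beside 2.63% of all genes higher and 0.282% lower. Hk2 was at 47.7 and 33.1 CPM in RT pools, against 8.75 and 12.9 CPM in NT pools (8 and 10 UMIs, against 5 and 21), and its 1.75 ± 0.67 did not pass (edgeR adjusted p = 0.228). Hk1, the constitutive hexokinase, gave 0.70 ± 0.26 and Aldoa 0.68 ± 0.27, also without passing. With FTY720, Hif1a was again the single member of 31 called, beside 0.0789% of all genes higher and 0.0902% lower.

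In Treg-like cells the called member was Hk2. It was the single one of 31 for RT against NT at day 3, beside 0.51% of all genes higher and 0.085% lower. Hk2 stood at 38.8 and 52.9 CPM in RT day 3 pools (8 and 19 UMIs), against 11.8 and 11.5 CPM in NT day 3 pools (9 and 24 UMIs), without overlap (2.01 ± 0.42, edgeR adjusted p = 0.0478). The call was kept in 2 of 12 fits without 1 pool (those without an RT+FTY720 pool), with values of 1.73 to 2.17, and was lost with the replicate number as a block (2.00). It rests on few UMIs. RT+FTY720 pools had 68.6 and 74.8 CPM of Hk2 (11 and 10 UMIs), against 8.92 and 6.72 CPM in FTY720 pools (1 and 3 UMIs). There edgeR called 0 of 31 members and DESeq2 called 1, with 5 at an unadjusted p below 0.05 in edgeR and an adjusted p of 0.075 for Hk2, beside 0.0607% of all genes. Ddit4, an mTORC1 inhibitor induced by stress, was at 422 and 641 CPM in RT day 3 pools, against 205 and 362 CPM in NT day 3 pools, and did not pass (0.90 ± 0.30, adjusted p = 0.238). Cells were few, at 13 and 18 in RT day 3 pools, against 42 and 111 in NT day 3 pools.

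Other genes of the pathway were read beside the 3.4% of all genes higher and 1.3% lower given above for RT against NT in CD8-like cells. For RT against NT in CD8-like cells, 1 of 21 further hypoxia targets was higher (Rora, a nuclear receptor, 0.71 ± 0.17, edgeR adjusted p = 0.0376). In the same comparison 1 of 10 other glycolytic genes was lower (Aldoc, a second aldolase, -1.56 ± 0.39, adjusted p = 0.043), as was 1 of 7 pentose phosphate genes (Pgls, -0.66 ± 0.15, adjusted p = 0.0272). No call was made among 13 HIF pathway regulators such as Vhl and Arnt, 8 genes of pyruvate entry or 9 of growth signalling, where edgeR put 1, 0 and 1 at an unadjusted p below 0.05. For RT+FTY720 against FTY720 the only call in these lists was Mxi1, a MYC antagonist and hypoxia target, at 1.37 ± 0.26 (adjusted p = 0.0166). In CD4 conventional-like cells it was Slc3a2, an amino acid transporter chain, at 1.15 ± 0.22 for RT against NT (adjusted p = 0.0117).

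At day 1 no member passed. In both-colour sums of CD8-like cells Hif1a stood at 527 and 474 CPM in RT pools, against 444 and 432 CPM in NT pools (0.19 ± 0.15, edgeR adjusted p = 0.999). edgeR and DESeq2 each called 0 of 31 members there, with 5 at an unadjusted p below 0.05, beside 0.0974% of all genes. CD4 conventional-like cells had 964 and 975 CPM of Hif1a in RT day 1 pools, against 734 and 646 CPM in NT day 1 pools, and Treg-like cells 1349 and 1073 CPM, against 1067 and 970.2 CPM. These gave 0.49 ± 0.18 and 0.25 ± 0.23, neither of which passed, and both tools called 0 of 31 members in each class, beside 0% of all genes, with 1 and 0 at an unadjusted p below 0.05. The change of the radiation effect between day 3 and day 1 in Treg-like cells called 0 of 31 by both tools, beside 0%, with 5 at an unadjusted p below 0.05. The radiation effect on Hif1a in CD8-like cells was larger at day 3 than at day 1 by 1.23 ± 0.21 (edgeR adjusted p = 0.0478), the single member of 31 called, beside 0.156% of all genes higher and 0.0487% lower. That call was kept in 2 of 12 fits without 1 pool (those without an FTY720 pool), with values of 1.08 to 1.37. In CD4 conventional-like cells the same difference was 0.85 ± 0.25 (adjusted p = 0.206), where edgeR called 0 and DESeq2 1 of 31 members, beside 0.699% of all genes, with 5 at an unadjusted p below 0.05.

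With the colours of the matrices, green CD8-like cells at day 1 leaned the other way from Hif1a in their glycolytic genes, below the threshold. Of 30 members tested, 24 had negative values for RT against NT, with a median of -0.38 against 0.02 over all genes. edgeR and DESeq2 called 0 of them, beside 0% of all genes, and 8 were at an unadjusted p below 0.05. Pkm, the last enzyme of glycolysis, stood at 507 and 449 CPM in RT pools, against 633 and 732 CPM in NT pools (-0.52 ± 0.16, edgeR adjusted p = 0.662). Pgam1 stood at 230.0 and 148 CPM, against 308 and 377 CPM. The RT sums held 20 and 97 green cells. In green cells Hif1a gave 0.74 ± 0.34 (adjusted p = 0.936). In red CD8-like cells 13 of 31 members were positive and 0 were at an unadjusted p below 0.05, with 0 called by both tools beside 0% of all genes. In green cells 0 of 8 cell cycle genes were positive (median -1.59), with 5 at an unadjusted p below 0.05 in edgeR. All 7 p53 targets were positive there (median 1.74), with 7 at an unadjusted p below 0.05, and 0 of either list were called. The summed p53 targets of CD8-like cells, both colours together, were at 780.2 to 897 CPM in RT day 1 pools, against 381 to 407 CPM in NT day 1 pools. The part of these lists in the member values was not tested.

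Red Treg-like cells at day 1 had 28 of 31 members positive, with a median of 0.22 against 0.01 over all genes. 0 were called by edgeR or DESeq2, beside 0% of all genes, and 2 were at an unadjusted p below 0.05. Green Treg-like cells had 13 of 31 positive and 0 called by both tools, beside 0.0798%, with 2 at an unadjusted p below 0.05. Green CD4 conventional-like cells had 11 of 31 positive and 0 called by both tools, beside 0%, with 0 at an unadjusted p below 0.05. The difference of the day 1 radiation effect between red and green CD8-like cells called 0 of 29 members by both tools, beside 0%, with 2 at an unadjusted p below 0.05. Between NT day 3 and NT day 1, 0 members were called by both tools in green or red CD8-like, green or red Treg-like or green CD4 conventional-like cells, with 0, 2, 6, 2 and 0 at an unadjusted p below 0.05, beside 0%, 0.0318%, 0.0133%, 0% and 0% of all genes. With the colours of the labels, 0 members were likewise called in each of these comparisons within 1 colour at day 1 and over time. The difference of that time effect between red and green CD8-like cells called 0 of 29 by both tools, beside 0%, with 1 at an unadjusted p below 0.05.

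Between red and green cells of the same tumours, Mif and Slc16a3 were higher in red Treg-like cells with the colours of the matrices. Of 31 members tested in 8 pools with both colours, 2 were higher in red cells and 0 lower, beside 1.04% of all genes higher and 1.11% lower. Mif, a secreted cytokine, ran from 307 over a median of 612 to 877 CPM in red cells, against 119, 376 and 504 CPM in green cells. Its red level was above the green one in 8 of 8 pools (0.86 ± 0.12, edgeR adjusted p = 0.00325). In the replicate 1 pools, whose colours are undisputed, red cells had 835 CPM in RT day 1, 622 in NT day 1, 307 in RT day 3 and 608 in NT day 3, against 504, 406, 119 and 344 CPM in the green cells of those pools. Slc16a3 ran from 95.4 over 142 to 222 CPM in red cells, against 53.9, 76.8 and 104 CPM in green cells, and was higher in 7 of 8 pools (0.81 ± 0.17, adjusted p = 0.0205). Leaving out 1 pool kept the Mif call in 8 of 8 fits and the Slc16a3 call in 6 of 8, the exceptions being NT day 1 replicate 2 and RT day 1 replicate 2, with values of 0.75 to 0.90. With the colours of the labels the values were -0.11 for Mif and -0.29 for Slc16a3, and neither passed.

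Other members leaned the same way in red Treg-like cells without passing. In all, 27 of 31 were positive, with a median of 0.25 against 0.00 over all genes. Under the label colours 8 of 31 were positive, with a median of -0.12 against 0.01 over all genes, and 0 of all 6738 genes tested were called by edgeR. All 6 lower glycolytic enzymes and all 3 transporters were positive. Ldha, which makes lactate, was nearest to the threshold at 0.44 ± 0.11 (edgeR adjusted p = 0.0592), followed by Pgk1 at 0.56 ± 0.17 (adjusted p = 0.0971). Hif1a itself gave 0.10 ± 0.10. Of 7 pentose phosphate genes, Tkt, transketolase, was higher at 0.59 ± 0.14 (adjusted p = 0.0396). The activation genes Nr4a1 and Nr4a3 were also higher in red Treg-like cells, as were the chaperones Hspe1 and Hsp90aa1, and Jun was lower. None of these was called with the colours of the labels, where Tkt gave -0.02. Red Treg-like cells had a median of 21333 UMIs, against 16597 in green ones, and their summed B cell markers were at 265 to 447 CPM, against 32.5 to 313 CPM. The part of these in the member values was not tested.

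In CD8-like cells colour moved 1 member each way among 29 tested, beside 3.66% of all genes higher and 3.19% lower in red cells. Hif1a ran from 385 over 629 to 1635 CPM in red cells, against 272, 368 and 1303 CPM in green cells of the 12 pools, with the red level above the green one in 8 of 12 (0.52 ± 0.15, edgeR adjusted p = 0.0466). Pdk1, which inhibits pyruvate dehydrogenase, ran from 3.71 over 23.7 to 30.2 CPM in red cells, against 9.96, 30.0 and 41.7 CPM in green cells. Its red level was above the green one in 2 of 12 pools (-0.52 ± 0.15, edgeR adjusted p = 0.042). Both sit near the threshold. The Hif1a call was kept in 5 of 12 fits without 1 pool (without NT day 3 replicate 2, RT day 1 replicate 1, either RT day 3 pool or RT+FTY720 replicate 1), at 0.44 to 0.60. The Pdk1 call was kept in 2 of 12 (without RT day 1 or RT day 3 replicate 1), at -0.57 to -0.42. With the colours of the labels the values were -0.08 for Hif1a and 0.23 for Pdk1. Of 10 early activation genes, 8 were higher in red CD8-like cells, Egr2 by 2.87 on the log2 scale, and their sum was at 1794 to 9451 CPM in red cells, against 639 to 2449 CPM in green cells. Under the label colours 0 of the 10 were called by edgeR and 0 were at an unadjusted p below 0.05, Egr2 gave -0.49 ± 0.81, and their sum was at 639 to 6685 CPM in red cells, against 1034 to 9451 CPM in green cells. Under those labels 6 of 29 members were positive in CD8-like cells, against 17 of 29 with the colours of the matrices, and 0 of all 7077 genes tested were called. Without the cluster led by Il2, of which 94.2% of cells were red, Hif1a gave 0.41 and Pdk1 -0.43, and neither passed.

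**Figure D3:**
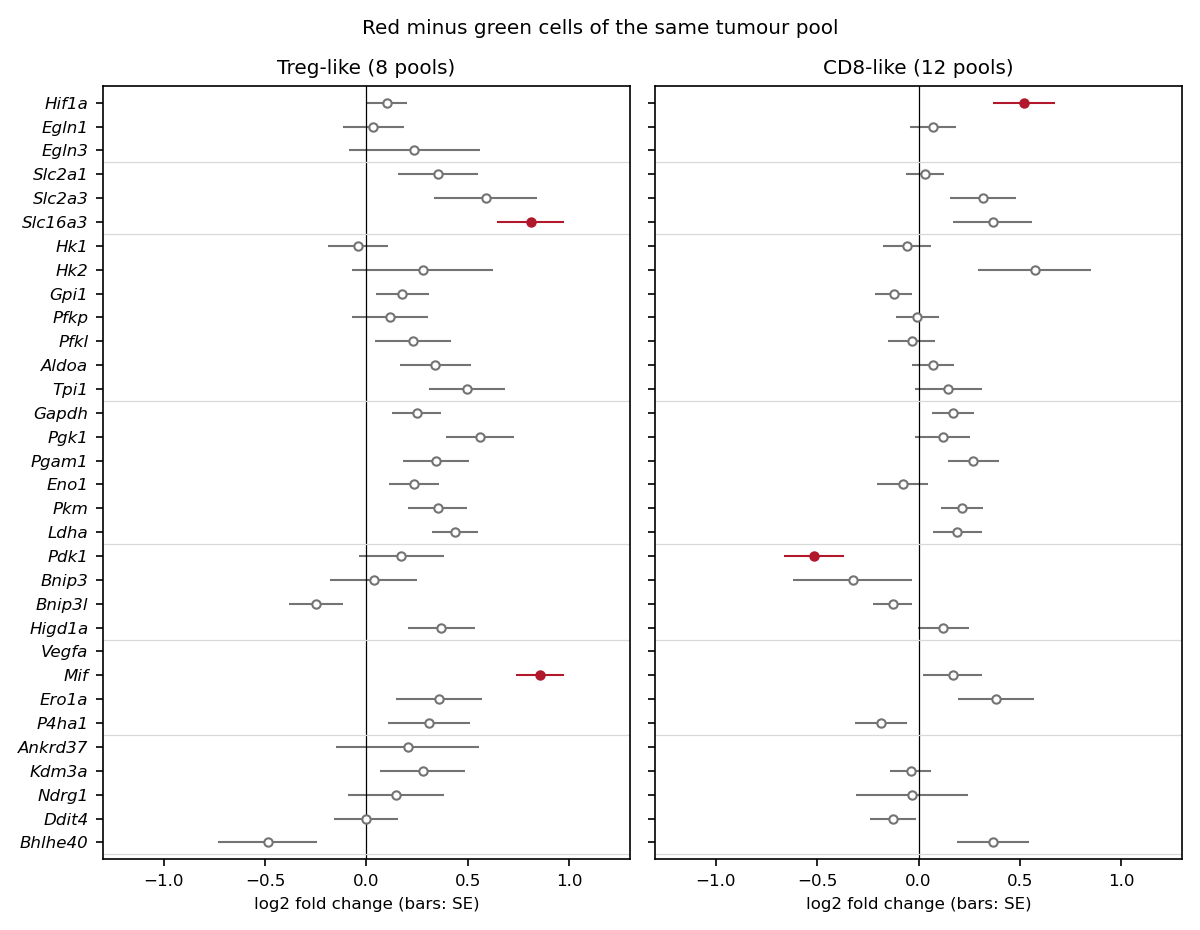
Log2 fold change of red against green cells of the same pool, with its SE, for every tested member, in Treg-like cells of 8 pools and CD8-like cells of 12 pools. Filled red points passed the adjusted p threshold of 0.05. In Treg-like cells 27 of 31 points lie right of 0, and in CD8-like cells 17 of 29.

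CD4 conventional-like cells of 9 pools had 0 of 24 members called for colour by edgeR or DESeq2, beside 0.0822% of all genes, and 5 at an unadjusted p below 0.05. The CD8 cells of the clusters with naive markers, in 5 pools with both colours, went the other way from Treg-like cells. Of 25 members tested, 3 were lower in red cells and 0 higher, beside 0.59% of all genes lower and 0.635% higher, and 5 were positive. Bhlhe40, a transcription factor induced in activated T cells, had 0, 48.0, 107, 37.7 and 38.5 CPM in red cells of NT day 1 replicates 1 and 2, NT day 3 replicates 1 and 2 and RT day 1 replicate 2, against 85.2, 164, 205, 154 and 104 CPM in their green cells. It was lower in red in 5 of 5 pools (-1.66 ± 0.24, edgeR adjusted p = 0.00173), and in 5 of 5 fits without 1 pool. The 0 came from 7 cells, in which 3 UMIs, the limit that a count of 0 allows, would be 21.7 CPM, the level at which Ddit4 with its 3 UMIs stood there. Ddit4 (-1.01 ± 0.23) and Gapdh (-0.54 ± 0.12) were lower in 5 of 5 pools as well (both adjusted p = 0.0383). Leaving out 1 pool ended the Ddit4 call in all 5 fits, at -1.18 to -0.81, and the Gapdh call in the 3 without a day 1 pool, at -0.64 to -0.43 over all 5. With the colours of the labels the values were 0.77 for Bhlhe40, 0.46 for Ddit4 and 0.11 for Gapdh, and none passed. The larger cluster held 73.7% of the red and 86.8% of the green cells of this class. Over all cells of the class, red and green also differed in markers, so they were not cells of 1 uniform type. Green cells had more Gzmb (556 against 141 CPM in red) and Fcer1g (108 against 14.4 CPM). Red cells had more Tcf7 (520 against 303 CPM in green) and Ccr7 (366 against 210 CPM). The part of these differences in the member values was not tested.

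**Figure D4:**
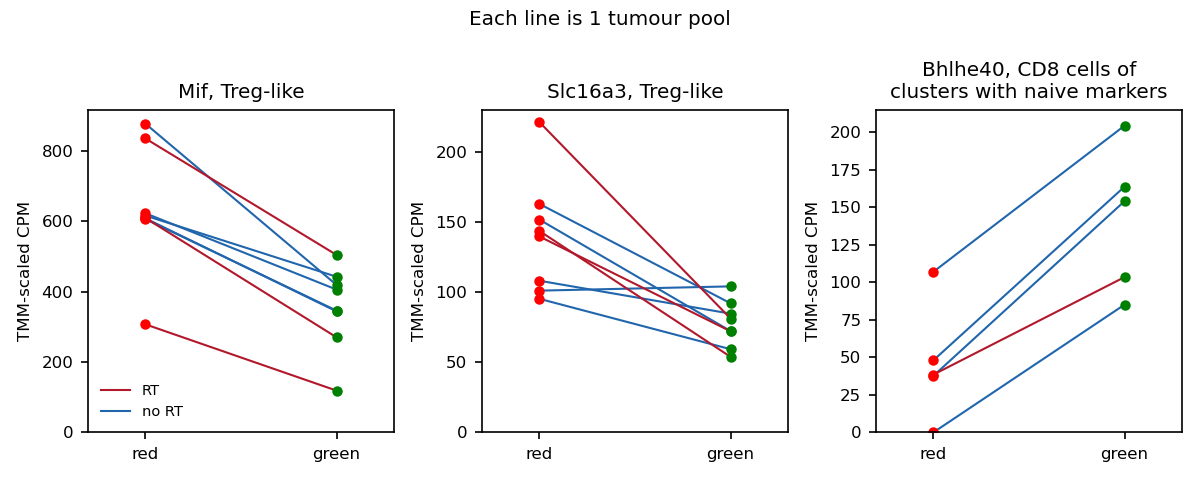
TMM-scaled CPM of Mif and Slc16a3 in Treg-like cells and of Bhlhe40 in CD8 cells of clusters with naive markers, red against green cells, 1 line per tumour pool. Lines of irradiated pools are red and the others blue. Mif was higher in red cells in 8 of 8 pools and Slc16a3 in 7 of 8, while Bhlhe40 was lower in red cells in 5 of 5.

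More members were called between lineages than with radiation or colour, and so was a larger share of all genes. Treg-like cells were compared with CD8-like cells of the same 12 pools, where 17 of 31 members were higher and 3 lower, beside 19.1% of all genes higher and 20.3% lower. The median member change was 0.34, against -0.04 over all genes. Ddit4 ran from 203 over 328 to 636 CPM in Treg-like cells, against 50.01, 68.7 and 119 CPM in CD8-like cells, without overlap (2.19 ± 0.11, edgeR adjusted p = 4.6e-12). Ndrg1, a stress-induced HIF target, ran from 42.7 over 56.2 to 166 CPM, against 9.39, 19.4 and 35.9 CPM, also without overlap (1.61 ± 0.18, adjusted p = 5.33e-07).

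The regulators and transporters did not all go the same way. Egln3 was 1.74 ± 0.22 higher on the log2 scale and Hif1a 0.95 ± 0.16 (edgeR adjusted p = 8.27e-05), and Egln1 gave 0.07 without passing. Hif1a was higher in Treg-like cells in 11 of 12 pools, the exception being RT+FTY720 replicate 1, at 955 CPM in Treg-like and 1375 CPM in CD8-like cells. Slc16a3 ran from 60.8 over 106 to 199 CPM in Treg-like cells, against 7.63, 42.0 and 64.1 CPM in CD8-like cells (1.55 ± 0.17, adjusted p = 5.17e-07). Slc2a1 and Slc2a3, both glucose transporters, moved in opposite directions, at 0.34 ± 0.13 and -0.45 ± 0.12. So did the phosphofructokinases Pfkl, at 0.39 ± 0.12, and Pfkp, at -0.32 ± 0.09. Calls in the other pathway lists also went both ways. Of the further hypoxia targets, Plod2 (-2.62), Anxa2 (-0.71) and Pfkfb3 (-0.41) were lower in Treg-like cells. Plin2 (1.66), Rora (1.65), Cxcr4 (1.15), Pgm1, Mxi1, Ccng2, Pgm2 and Wsb1 were higher. The lactate transporter Slc16a1 was lower (-0.86). In growth signalling Rptor (-1.22), Slc7a5 (-1.01), Slc3a2 and Mtor were lower, and Batf (1.08) was higher.

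Among the enzymes Pkm stood out, at a mean of 1184 ± 267 CPM in Treg-like and 638 ± 98.6 CPM in CD8-like cells (SD, n = 12 each). Tpi1, Ldha, Aldoa and Pgk1 were higher by 0.28 to 0.47, and Gapdh, Eno1, Pgam1, Hk1, Hk2 and Gpi1 did not pass. The Pgk1 and Slc2a1 calls were the least stable, lost in 6 and 5 of 12 fits without 1 pool. Bnip3, a receptor for the removal of mitochondria, was higher by 1.41 ± 0.23, and Pdk1 by 0.64 ± 0.15. P4ha1, a collagen prolyl hydroxylase, ran from 78.5 over 158 to 265 CPM in Treg-like cells, against 51.3, 68.7 and 88.1 CPM in CD8-like cells (1.19 ± 0.12, edgeR adjusted p = 9.55e-08). Bhlhe40 was the member lowest in Treg-like cells, running from 151 over 245 to 581 CPM, against 393, 500 and 962 CPM in CD8-like cells (-1.0 ± 0.17, with the Treg-like level above in 2 of 12 pools). Cells of the 2 classes also differed in other ways: of 8 cell cycle genes tested 4 were lower in Treg-like cells, and of 10 early activation genes 2 were higher and 4 lower. Of 6 p53 targets 4 were higher and 1 lower, and of 6 dissociation genes 2 were higher and 1 lower. Summed B cell markers (6 genes, all detected) were at 122 to 506 CPM in Treg-like pools, against 10.8 to 62.4 CPM in CD8-like pools, and summed dendritic markers (5 of 6 detected, Clec9a at 0) at 159 to 1335 CPM, against 24.8 to 141 CPM, neither with overlap. The part of these in the member values was not tested.

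Against CD4 conventional-like cells of 11 pools, 13 of 30 members were higher in Treg-like cells and 1 lower, beside 12.8% of all genes higher and 13.1% lower. Slc16a3, Ddit4, Ndrg1, P4ha1, Bnip3 and Pkm were again higher, by 1.87 ± 0.19, 1.42 ± 0.18, 1.76 ± 0.27, 1.08 ± 0.17, 1.90 ± 0.27 and 0.78 ± 0.15. Bhlhe40 was again lower (-1.34 ± 0.20), and in all 11 pools. Mif, Slc2a3 and 5 of the 6 lower glycolytic enzymes were also higher than in CD4 conventional-like cells, by 0.44 to 0.78. Of these, Mif, Gapdh and Pgam1 had not passed against CD8-like cells, and Slc2a3 had the opposite sign there, at 0.74 ± 0.20 against CD4 conventional-like and -0.45 ± 0.12 against CD8-like cells. Hif1a gave 0.19 and did not pass. Of 7 pentose phosphate genes 4 were higher in Treg-like cells (Tkt, Rpia, Pgd and Taldo1). Among further hypoxia targets Plin2, Tfrc, Mxi1 and Pgm1 were higher and Cxcr4 was lower. In growth signalling Myc, Irf4, Batf and Rheb were higher, and Rptor and Slc3a2 were lower. Without the p53 and interferon clusters 9 members passed in place of 14, and Gapdh, Pgam1, Pgk1, Slc2a3 and Tpi1 were those lost. The summed B cell markers were at 130 to 344 CPM in Treg-like pools, against 0 to 69.6 CPM in CD4 conventional-like pools, and of 8 early activation genes 4 were higher and 2 lower. Their part was not tested.

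CD4 conventional-like cells compared with CD8-like cells of 11 pools had 6 of 31 members higher and 5 lower. These were near the shares over all genes, 17.3% higher and 18.4% lower. Hif1a was higher in 11 of 11 pools (0.65 ± 0.07, edgeR adjusted p = 3.16e-07), and Egln3 by 1.73 ± 0.23. Slc2a3 (-1.17 ± 0.19) and Mif (-0.73 ± 0.13) were the lowest of the 5 lower members. Of 7 cell cycle genes 5 were lower in CD4 conventional-like cells, as were 4 of 10 early activation genes, and of 8 dissociation genes 3 were higher and 1 lower. The median was 15481 UMIs in red and 15226 in green CD4 conventional-like cells, against 23458 and 21567 in CD8-like cells. The part of these in the member values was not tested. Over all conditions together, Hif1a was thus higher in Treg-like and in CD4 conventional-like than in CD8-like cells. Treg-like and CD4 conventional-like cells did not differ beyond their spread there, and each single condition held few pools. By the levels given above, each scaled within its own class, Treg-like pools lay above CD4 conventional-like ones at day 1, in NT day 3 and in FTY720 day 3. In RT day 3 and RT+FTY720 day 3 the Treg-like pools lay below. The difference of the radiation effect at day 3 between these classes called 0 of 30 members, so a change of order with radiation was not shown. With FTY720 such a change was not tested.

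**Figure D5:**
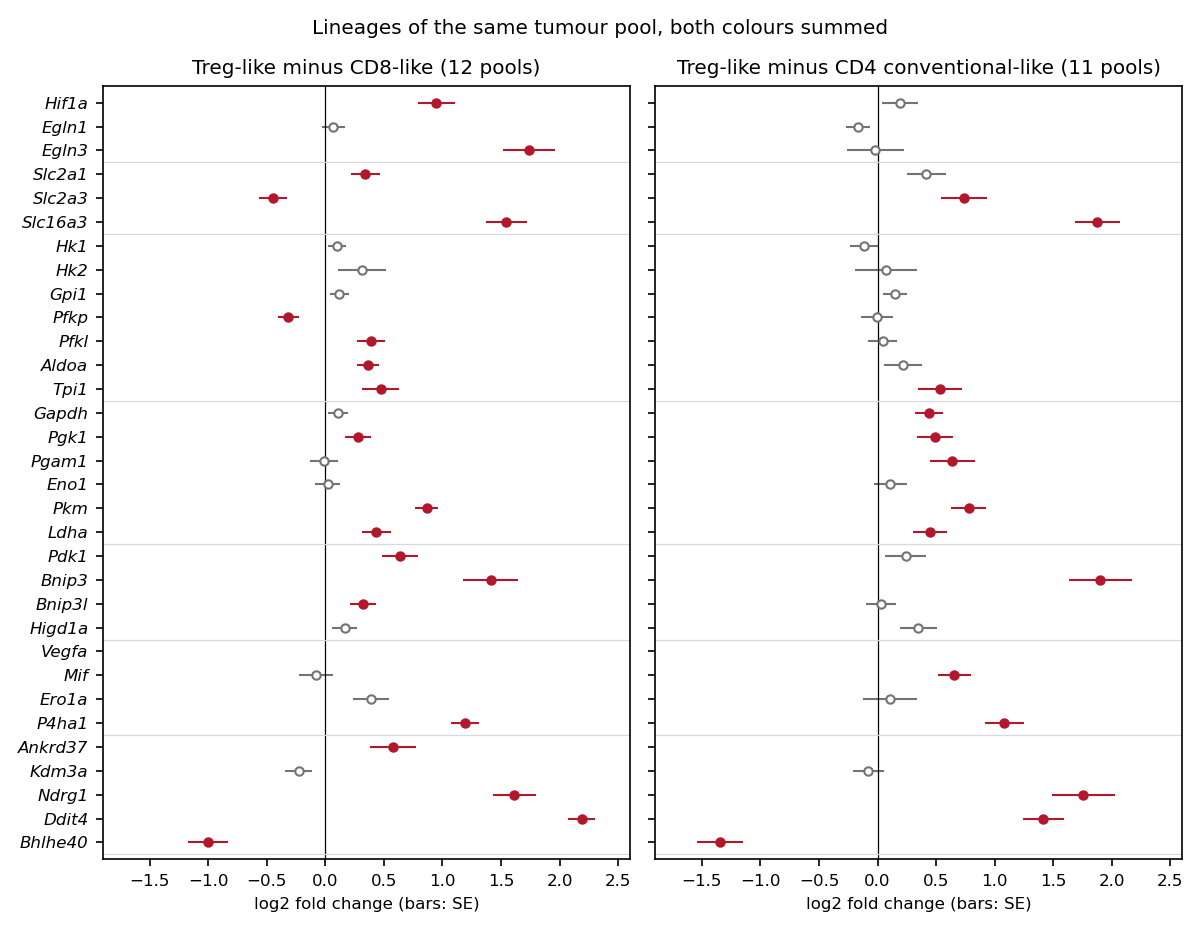
Log2 fold change with its SE for every tested member between lineages of the same pool, Treg-like against CD8-like cells on the left (12 pools) and against CD4 conventional-like cells on the right (11 pools). Filled red points passed the adjusted p threshold of 0.05. Ddit4, Ndrg1, Slc16a3, Bnip3 and P4ha1 lie beyond 1 in both panels, and Bhlhe40 at -1.0 and -1.34.

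As a share of all UMIs, the 13 glycolytic enzymes among the members made up 0.860% ± 0.147 in red Treg-like cells (SD, n = 11 pools) and 0.694% ± 0.191 in green ones (n = 8). In CD4 conventional-like cells they made up 0.647% ± 0.193 in red (n = 9) and 0.586% ± 0.231 in green cells (n = 11), and in CD8-like cells 0.635% ± 0.124 in red and 0.594% ± 0.0953 in green cells (n = 12 each). CD8 cells of the clusters with naive markers had 0.360% ± 0.141 in red (n = 9) and 0.376% ± 0.0519 in green cells (n = 5), and CD4 cells of clusters with naive markers 0.178% ± 0.0242 in red cells (n = 3). Within pools that held both colours, the red share was above the green one in 6 of 8 pools of Treg-like, 7 of 9 of CD4 conventional-like, 7 of 12 of CD8-like and 0 of 5 of naive-marker CD8 cells. The mean difference of red minus green was 0.137 ± 0.192 percentage points in Treg-like and -0.0850 ± 0.0475 in naive-marker CD8 cells (SD over the 8 and 5 pools). With the colours of the labels, red was above green in 4 of 8, 3 of 9, 5 of 12 and 3 of 5 pools, and the Treg-like shares were 0.762% ± 0.159 in red (n = 9) and 0.816% ± 0.206 in green cells (n = 10). These shares were not tested.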

How the data were processed

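The deposited files held UMI counts per gene and cell barcode from 4 wells of a GEM-X 5′ assay of CD90.2-positive T cells that were sorted as Kaede red or green, with hashtag counts and T cell receptor tables. The authors ran Cell Ranger 8.0.1 with mm39, per the submitters' processing notes, and whether strand was used in counting is not given in the sources used here. The counts are whole numbers with no length normalization, so levels are not compared between genes, and no column of another series was present (0).

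Barcodes under 500 genes or over 10% mitochondrial UMIs were dropped, which left 2740 of 2816, and a hashtag was called at 20 or more UMIs and 3 times the next, which left out 0 cells. Cells were grouped with scanpy 1.11.5 (2000 variable genes, 9 of them members, 30 components, 15 neighbours, Leiden resolution 1, 16 clusters). No doublet caller was run, and 90 cells with 2 or more TCR beta chains were left out in an alternative. Classes came from UMIs of Cd8a, Cd8b1, Cd4 and Foxp3. Classes by clusters, the first plan, became the alternative after the clusters were seen and before any comparison of members, since 23 CD4 conventional-like cells lay in Treg clusters. CD8 cells of clusters with at least 6 of 10 naive markers formed a class of their own.

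Counts were summed per pool and class (at least 5 cells), scaled by TMM (CPM below are TMM-scaled within each fit) and tested over all genes that passed filterByExpr with edgeR 4.0.16 (quasi-likelihood, limma 3.58.1, R 4.3.3) and Benjamini-Hochberg adjustment, with a threshold of 0.05. Colour and lineage comparisons had the tumour pool as a block, because both sides came from the same tumours. Condition comparisons used all 6 conditions with 1 spread. Their replicate number marks a shared well for conditions of the same well, and the block was run as an alternative. The correlation of same-numbered deviations in CD8-like cells over 6543 genes was -0.0553 to 0.131 for conditions sharing a well and -0.138 to 0.150 for the others. DESeq2 1.42.0 was a second tool. Comparisons in both-colour sums at day 1, in CD4 conventional-like and Treg-like cells at day 3, of differences between effects, and between lineages were added after the first Hif1a values were seen, as were fits without the Il2, cell cycle, and p53 and interferon clusters.

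The members and all lists were chosen with earlier results of these data known. Members past the threshold are named with values, up to 10 per comparison by size of change, and others by count and range or as examples near the threshold, picked after their values were seen. Replicates are pools of tumours from different mice, 2 per condition. With 2 pools on each side a lack of overlap is weak by itself, and its share over all genes was not counted. The ± values are SEs of the edgeR fits, which use the spread between pools, or SDs over pools where so marked. The limit given for an undetected gene covers counting error only. Aldoa has 2 identifiers in the matrix, and the one with nearly all UMIs was used. The fits were tested on simulated data in which 100 genes were changed 2-fold and 100 genes 4-fold. For colour, 87% and 100% were recovered in Treg-like cells (6738 genes) and 100% and 100% in CD8-like cells (7077 genes). For RT+FTY720 against FTY720 in CD8-like cells, 31% and 81% were recovered (10265 genes). Among unchanged genes, 2, 11 and 9 were called in these fits, in that order. Apart from the set changes, a simulated gene had the same mean in every pool and a spread set by the fitted trend. Differences between pools and gene-specific spread were thus absent, so recovery in the data may be lower.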

Additional observations from a re-analysis of the deposited data

Results flagged for a closer look

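The radiation effect on Hif1a in CD8-like cells differed between collection times. RT against NT gave a log2 fold change of 1.42 ± 0.15 at day 3 and 0.19 ± 0.15 at day 1, and the difference of these effects was 1.23 ± 0.21 (edgeR quasi-likelihood, adjusted p = 0.0478, 2 pools per group). Both RT day 3 pools (1139 and 1122 CPM) lay above both NT day 3 pools (469 and 377 CPM), and the RT day 1 pools had 527 and 474 CPM, against 444 and 432 CPM in NT day 1 pools. At day 3 RT and NT came from different wells and at day 1 from the same wells, so well and time cannot be told apart in this difference. Within the wells that held both RT+FTY720 and FTY720, the day 3 effect of radiation was 1.61 ± 0.16. Dixon's test for a pool that stands apart was run on 10 groups and marked 0. These were the red and the green values of the called members in Treg-like cells (8 pools) and in naive-marker CD8 cells (5 pools). Hif1a and the comparisons between conditions were not among them.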

How the results depend on the processing

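The Hif1a calls for RT against NT at day 3 in CD8-like (12 of 12 fits without 1 pool, 1.27 to 1.56) and CD4 conventional-like cells (11 of 11, 1.3 to 1.39), and for RT+FTY720 against FTY720 in CD8-like cells (12 of 12, 1.40 to 1.91), held under all 13 other settings run for each. Counts of members called moved as follows. Without the low-count filter they were 4 in red against green CD8-like (main 2), 7 in Treg-like (2), 2 for RT in green CD8-like at day 1 (0), 1 over time in red CD8-like (0), 4 for RT at day 3 in CD8-like (1), 1 for RT+FTY720 against RT (0), 5 for FTY720 against NT (0), 1 for RT at day 1 in CD8-like sums (0), 2 for day 3 minus day 1 (1), 1 for the change of the RT effect with FTY720 (0), and 2 for RT+FTY720 against FTY720 in both Treg-like (0) and CD4 conventional-like cells (1). DESeq2 gave 1, 2 and 1 for RT+FTY720 against FTY720 in Treg-like (0) and CD4 conventional-like cells (1) and for day 3 minus day 1 in CD4 conventional-like cells (0). Library size alone gave 1 for colour in CD8-like (2), 1 for RT+FTY720 against FTY720 in CD8-like (3), 0 for day 3 minus day 1 in CD8-like (1) and 0 for RT at day 3 in Treg-like cells (1), and moved the median of all genes by -0.119 (RT at day 3, Treg-like), -0.134 (RT at day 3, CD4 conventional-like) and -0.147 (day 3 minus day 1, CD4 conventional-like). Classes by clusters gave 1 for RT+FTY720 against FTY720 in CD8-like cells and 0 in CD4 conventional-like cells, and 0 for RT at day 3 in Treg-like cells. Clustering without the members gave 1 for colour in CD8 cells of clusters with naive markers (3) and 0 for day 3 minus day 1. The replicate block gave 0 for RT at day 3 in Treg-like cells and changed no other count by over 1.5 times, and no replicate block gave 1 for colour in CD8-like cells. At least 10 cells per sum gave 0, 1 and 1 for colour in CD8-like, Treg-like and naive-marker CD8 cells, and the colours of the labels 0 in each. Without cells of 2 TCR beta chains RT+FTY720 against FTY720 gave 1. Without the Il2 cluster, colour and day 3 minus day 1 in CD8-like cells gave 0. Without the p53 and interferon clusters counts were 1 for colour in CD8-like and in Treg-like cells, 1 for RT+FTY720 against FTY720, 0 for day 3 minus day 1, 0 for RT at day 3 in Treg-like and 2 in CD4 conventional-like cells, 9 for Treg-like against CD4 conventional-like (14) and 7 for CD4 conventional-like against CD8-like (11). Leaving out 1 pool gave 0 to 2, 1 to 3 and 1 to 2 for colour in CD8-like, Treg-like and naive-marker CD8 cells, 1 to 2 for RT at day 3 and 1 to 3 for RT+FTY720 against FTY720 in CD8-like cells, 0 to 1 for day 3 minus day 1, for RT at day 3 in Treg-like and for RT+FTY720 against FTY720 in CD4 conventional-like cells, and 15 to 21, 10 to 16 and 9 to 14 for Treg-like against CD8-like, Treg-like against CD4 conventional-like and CD4 conventional-like against CD8-like cells. Reversed values, all with the colours of the labels and none called, were -0.077 (Hif1a) and 0.23 (Pdk1) in CD8-like, -0.11 (Mif) and -0.29 (Slc16a3) in Treg-like, and 0.77 (Bhlhe40), 0.11 (Gapdh) and 0.46 (Ddit4) in naive-marker CD8 cells. Over all named members and settings 1263 values kept direction and side of the threshold, 179 kept direction but no longer passed and 7 reversed. Where no value shows the cause, the cause was not tested. Treated day 3 pools held few cells, and for RT+FTY720 against FTY720 in CD8-like cells 31% of simulated 2-fold changes were recovered.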
